A study of Mus musculus with 2 samples.

Results

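The HoxB cluster on mouse chromosome 11 was described by the PHF19 peaks that the authors deposited there. The rule took every deposited peak that overlaps chr11:96000000-96250000 of the mm8 build, a window of 250 kb, and found 29 of the 3445 peaks in the list. They are numbered 1 to 29 here by rising position. The window was taken by position and not by signal, but the peaks in it were called by the authors on the same ChIP reads that are counted below, so enrichment in peaks is given as a description.

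Chromatin immunoprecipitation with sequencing was carried out in E14, a mouse embryonic stem cell line that was grown on gelatin with the cytokine LIF. One group is DNA recovered with a custom rabbit polyclonal antibody against PHF19, and the other is input DNA for which no antibody was used. With 1 library in each group there is no replicate error, and every test below sets reads of one library against those of the other, which does not test conditions. Distinct reads numbered 21957101 in the ChIP and 24496988 in the input. The libraries hold genomic DNA, so the cell type was not checked against markers, and there was no control for what else the antibody recovers.

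Hox genes encode homeodomain transcription factors that give cells their position along the head-to-tail axis of the embryo. Genes at the Hoxb1 end of the cluster are activated earlier and nearer the head, and genes at the Hoxb13 end later and nearer the tail. In embryonic stem cells Hox clusters are known to be silenced by Polycomb complexes, among them PRC2, which methylates histone H3 at lysine 27. PHF19 is a Polycomb-like partner of PRC2 whose Tudor domain binds histone H3 methylated at lysine 36.

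The 10 HoxB genes were matched by symbol to a RefSeq gene table of the GRCm38.p6 assembly. By rising start, that table lists Hoxb13, then 5 non-coding genes or pseudogenes, the microRNA gene Mir196a-1, Hoxb9, Hoxb8, Hoxb7, Hoxb6, Hoxb5, Hoxb3, Hoxb4, Hoxb2 and Hoxb1, with Mir10a between Hoxb3 and Hoxb4 and the antisense transcripts Hoxb5os and Hoxb3os among them. Ttll6 lies before Hoxb13 and Skap1 after Hoxb1. No gene annotation of the mm8 build was used here. Peaks therefore carry no gene names, and the name of the cluster rests on the window. Low positions are called the Hoxb13 side and high positions the Hoxb1 side from this order alone.

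Promoters of 3 of the 10 genes were found in a RefSeq table, also of GRCm38.p6, and are shown because Polycomb-like proteins are known to bind DNA rich in CG dinucleotides. Each run is the 250 bases before the gene's start on the plus strand, from 5′ to 3′, with CG in capitals. The windows are chr11:96365508-96365757 for Hoxb1, chr11:96318017-96318266 for Hoxb4 and chr11:96281655-96281904 for Hoxb8. These are positions of GRCm38.p6 and cannot be set against the mm8 positions of the peaks.
Hoxb8: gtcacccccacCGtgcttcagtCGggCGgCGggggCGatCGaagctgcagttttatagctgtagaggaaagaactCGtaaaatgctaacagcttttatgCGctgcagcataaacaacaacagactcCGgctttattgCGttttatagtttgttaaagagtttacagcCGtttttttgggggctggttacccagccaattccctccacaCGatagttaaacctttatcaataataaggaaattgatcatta
Hoxb4: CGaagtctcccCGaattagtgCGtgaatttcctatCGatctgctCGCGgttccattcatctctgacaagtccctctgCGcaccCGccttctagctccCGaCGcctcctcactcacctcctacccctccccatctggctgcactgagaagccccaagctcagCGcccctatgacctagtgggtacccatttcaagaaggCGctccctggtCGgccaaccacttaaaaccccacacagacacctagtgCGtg
Hoxb1: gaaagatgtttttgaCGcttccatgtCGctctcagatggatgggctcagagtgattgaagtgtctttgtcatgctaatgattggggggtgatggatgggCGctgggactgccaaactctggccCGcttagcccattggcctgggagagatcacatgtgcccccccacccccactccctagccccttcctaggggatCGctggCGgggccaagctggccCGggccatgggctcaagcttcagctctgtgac
Hoxb4, a regulator of blood stem cells as well as of axial identity, has 14 CG dinucleotides, Hoxb8 has 12 and Hoxb1, a hindbrain gene, has 7. Over all 32851 promoters of the table the median was 6, with quartiles of 2 and 16. At least as many as in Hoxb4 were found in 29.4% of promoters, at least as many as in Hoxb8 in 33.5%, and at least as many as in Hoxb1 in 46.3%. CCAAT, searched on both strands, was found in Hoxb1 and Hoxb8 and in 33.8% of all promoters. TATAAA, searched on both strands, was found in Hoxb8 and in 12.4% of all promoters.

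Across the window PHF19 ChIP reads formed a small group of peaks at the Hoxb13 side, a long stretch without peaks, and a dense domain of peaks that ended well before the end of the window. Peaks 1 to 4 lay between 96004497 and 96020629. No peak lay in the next 46.4 kb. Peaks 5 to 29 then ran from 96067046 to 96190890, a span of 123.8 kb in which no gap was longer than 10 kb (called the stretch here). By number of peaks and by length it ranked 1 among the 2502 such stretches in the genome. Lone peaks count among these, and ranks at other limits than 10 kb are not given here. Above the stretch the next peak of the chromosome lay 642.5 kb away.

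**Figure D1:**
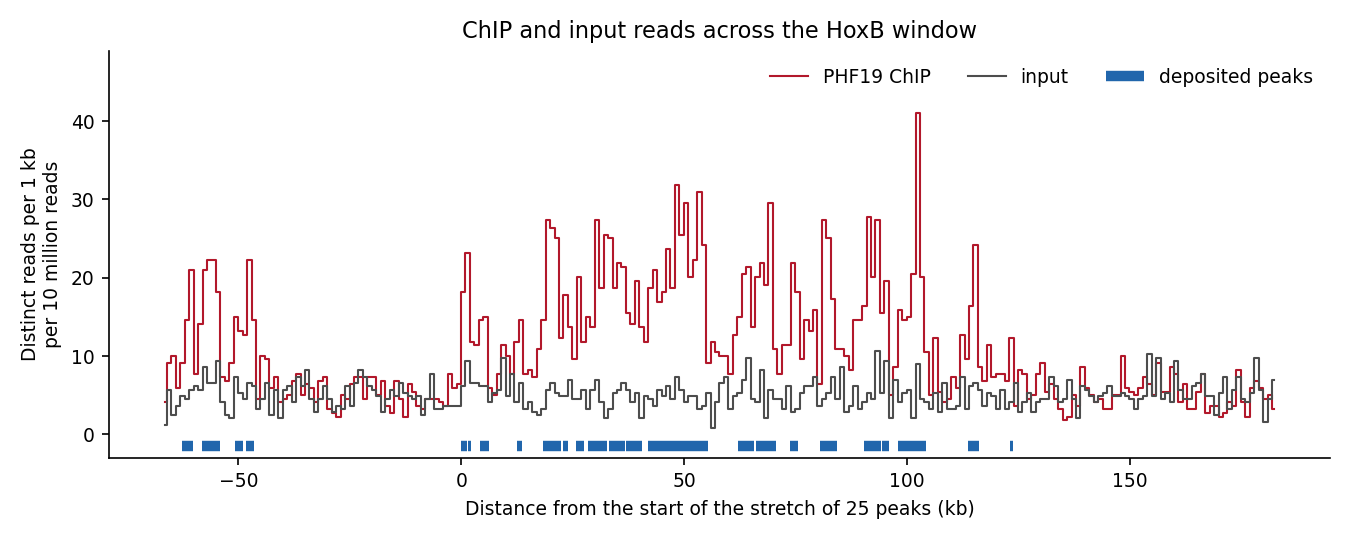
Distinct reads of the PHF19 ChIP (red) and the input (grey) in bins of 1 kb, scaled by the distinct reads of each library, against the distance in kb from the start of the stretch; blue bars are the 29 deposited peaks. The ChIP rises above the input over the 4 peaks on the left and over the stretch of 25, and both lie together in the gap of 46.4 kb and beyond the upper end.

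The 29 peaks held 3438 ChIP and 1033 input reads over 75.9 kb. Fold is the ChIP share of distinct reads divided by the input share, with an exact 95% interval that covers counting error only. The interval may be too narrow, as it leaves out any spread between replicate libraries. The joint fold of the 29 peaks was 3.71 (3.46 to 3.98). All 29 were called enriched at an adjusted p of 0.05 (two-sided conditional binomial test, exact, adjusted over 3445 peaks by the Benjamini-Hochberg method) and a fold of at least 2, where 98.5% of the whole list was called. A fold of at least 4 was reached by 9 of the 29, or 31.0%, and by 40.6% of the whole list. The median fold was 3.35, against 3.68 over the list, and 11 of the 29 lay above that median.

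Most HoxB peaks were wider than the median peak of the list. Their median width was 1997 bp, against 1425 bp over the list, and 22 of the 29 were wider than the median of the list. Peak 17, at 96112613 to 96122392, was the widest at 9780 bp. It ranked 1 on chromosome 11 by width and by the authors' score, and 13 by width in the whole list. The narrowest was peak 29, at 714 bp. Across the 29 peaks the rank correlation of width and fold was 0.39, and over the 3445 peaks of the list it was 0.11. These are descriptions, as wide peaks hold more reads and peaks of one domain share both libraries.

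**Figure D2:**
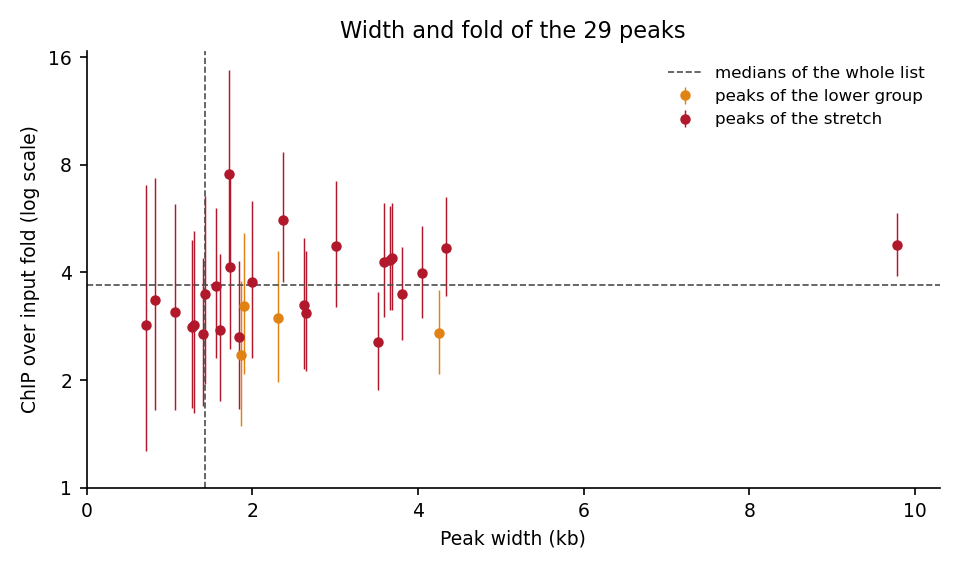
ChIP over input fold (log scale) against peak width in kb for the 29 peaks; points are peaks, bars exact 95% intervals, dashed lines the medians of all 3445 peaks. Most of the points lie to the right of the median width of 1425 bp, and 11 of the 29 lie above the median fold of 3.68.

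The group of 4 peaks on the Hoxb13 side had folds of 2.35 to 3.23. Peak 1, at 96004497 to 96006808, held 88 reads of the ChIP and 33 of the input, which gave a fold of 2.98 (1.97 to 4.58). Peak 2, at 96008785 to 96013032, was one of the 5 widest of the window at 4248 bp, with 192 against 79 reads and a fold of 2.71 (2.08 to 3.57). Peak 3, at 96016198 to 96018063, had the smallest fold of all 29, at 2.35 (1.48 to 3.79), from 61 against 29 reads. Peak 4, at 96018725 to 96020629, closed the group with 81 against 28 reads, a fold of 3.23 (2.08 to 5.15). No peak of this group reached a fold of 4.

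Taken jointly, the 4 peaks had a fold of 2.79 (2.33 to 3.35; 422 against 169 reads) and the 25 peaks of the stretch 3.89 (3.61 to 4.21; 3016 against 864 reads). This pair was picked with the values in view and the window cuts the run that the 4 peaks belong to, so no test is given. The input held 16.4 reads per kb in the 4 peaks and 13.2 in the peaks of the stretch; the part of this in the values was not tested. Between the 4 peaks, the 3 short gaps together had a fold of 2.14 (1.55 to 2.98).

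The group went on below the window. By the same limit of 10 kb the 4 peaks belonged to a run of 7 that spanned 31.7 kb, 3 of them outside the window. The peak just outside it, at 95992460 to 95995652, had a fold of 4.25 (2.86 to 6.49; 122 against 32 reads), and peak 1 was the one just inside. The others had folds of 5.07 (2.61 to 10.8) and 2.29 (1.29 to 4.20). The next peak below that run lay 232.5 kb below the start of the stretch.

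In the long gap towards Hoxb13, from 96020630 to 96067045, ChIP reads lay close to the input. The ChIP had 563 reads there and the input 552, for a fold of 1.14 (1.01 to 1.28). On chromosome 11 more than 100 kb from any peak the fold was 1.0 (0.997 to 1.003). The ratio of both values was 1.14 (1.01 to 1.28; two-sided Fisher's exact test, p = 0.0331, adjusted p = 0.0662 over the 6 tests on reads made within the window), which did not pass the adjusted threshold. The 6 include comparisons whose tests are not given here, some with smaller p, and their inclusion lowers this adjusted p. The space between peaks inside the stretch had a fold of 1.94. The gap is defined by the lack of peaks called on these same ChIP reads, so that it was lower is a description, and no test is given.

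Reads within the gap were not even. In steps of 10 kb from the Hoxb13 side the folds were 1.43 (1.11 to 1.83), 1.05 (0.798 to 1.37), 1.08 (0.846 to 1.39) and 0.884 (0.672 to 1.16), and the last 6.416 kb had 1.40 (0.981 to 2.02). The fold was thus above 1 beyond counting error only in the step next to peak 4, among these 5. In the 5 kb next to peak 4 it was 1.74 (1.23 to 2.49; 86 against 55 reads), and in the 5 kb next to peak 5 it was 1.57 (1.05 to 2.37; 62 against 44 reads). The 46 bins of 1 kb that lay in the gap held 5 to 22 ChIP reads (median 11) and 5 to 20 input reads (median 11), so the gap was covered by reads of both libraries throughout.

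**Figure D3:**
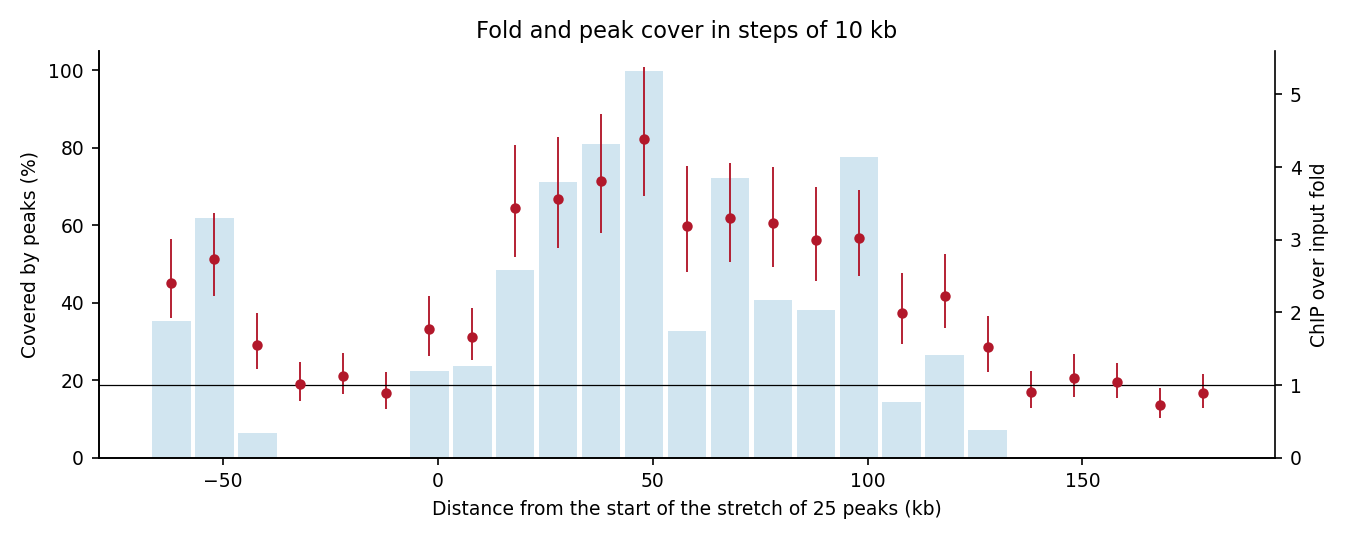
ChIP over input fold (red points, right axis, exact 95% intervals) and the share of bases covered by deposited peaks in percent (blue bars, left axis) in steps of 10 kb, against the distance in kb from the start of the stretch; the line marks a fold of 1. The step with the highest fold, 4.39, is also the one that is 99.7% covered by peaks, and fold falls towards 1 in the long gap and above the stretch.

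Bins of 1 kb were tested without use of the peak list and then sorted by it. The peaks were called on the same ChIP reads, so the match between called bins and peaks is a description. Of the 250 bins of the window, 51 (20.4%) passed for a higher ChIP share (conditional binomial test, exact and one-sided, adjusted p of 0.05 and a fold of at least 2), against 0.157% of 2531234 bins tested in the genome. Of these 51, 49 were among the 96 bins that touch a peak. None of the 46 bins in the long gap was called, and none of the 59 above the stretch. Called bins did not reach either edge of the stretch. None was called in its first 10 kb, nor over any of peaks 5 to 8 or peak 29, and the called bin nearest the Hoxb13 edge began at 96085001 and touched peak 9. By a fold of at least 2 alone, which 9.40% of all tested bins reached, 86 of 96 peak bins passed, 22 of the 42 bins between peaks of the stretch, 5 of 46 in the long gap and 4 of 59 above the stretch. Of the 7 bins that touch no peak on the Hoxb13 side of the long gap, 4 passed.

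Inside the stretch, the joint fold was lower at both ends than in the middle. Single peaks did not all follow this, as the smallest fold of the stretch, 2.56, was that of peak 18 in the middle. The following split was made after the folds were seen and is given without a test. Peaks 5 to 8, at the Hoxb13 end, had a joint fold of 2.80 (2.16 to 3.65), and peaks 27 to 29, at the Hoxb1 end, 2.98 (2.24 to 3.98). The 18 peaks between them, 9 to 26, over 84.7 kb, had 4.11 (3.78 to 4.47). All 9 peaks with a fold of at least 4 were among those 18. The space between peaks followed the same order, with 1.35 (1.06 to 1.71) at the Hoxb13 end, 2.16 (1.89 to 2.46) in the middle and 1.76 (1.44 to 2.15) at the Hoxb1 end. These values leave out the gap of 4687 bp between peaks 8 and 9, where the Hoxb13 end meets the middle. That gap had a fold of 2.68 (1.81 to 4.05) from 89 against 37 reads, so the value at the Hoxb13 end depends on where it is counted.

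Between the parts of the stretch on the Hoxb13 side and the Hoxb1 side of its middle, the joint peak fold did not differ beyond counting error. Neither this split nor a rank correlation can show a rise and then a fall. The peaks were also called on these same ChIP reads. The 13 peaks below the middle of the stretch had a joint fold of 4.07 (3.67 to 4.51) and the 12 above it 3.69 (3.29 to 4.14). The ratio was 1.10 (0.944 to 1.29; two-sided Fisher's exact test, p = 0.213, adjusted p = 0.320). When the peaks were split into equal numbers by position the ratio was 0.969 (0.828 to 1.13). The rank correlation of fold and position over these 25 peaks was 0.09.

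**Figure D4:**
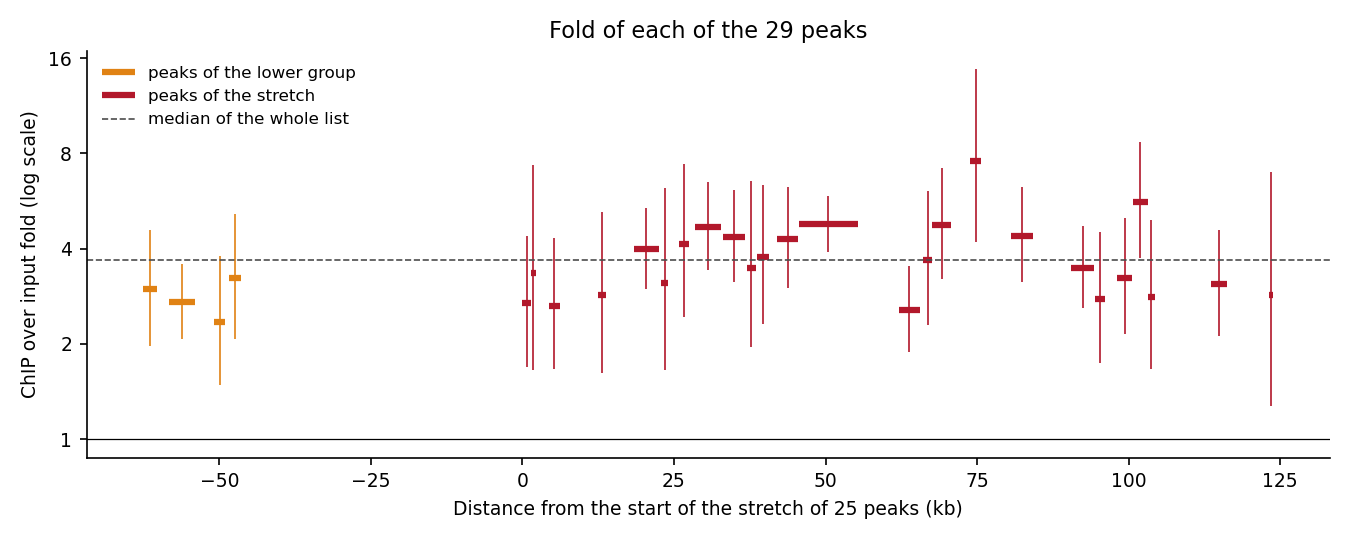
ChIP over input fold (log scale) of each of the 29 peaks against the distance in kb from the start of the stretch; horizontal bars span the peak, vertical bars are exact 95% intervals, and the dashed line is the median of the whole list, 3.68. The 4 peaks of the lower group and the peaks at both ends of the stretch lie below that line, as do some of the peaks in its middle. Above the line lie 11 of the 29 peaks, and peak 21 is the highest at 7.55.

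At the Hoxb13 end of the stretch no peak had a fold above the median of the 29, which was 3.35. Peak 5, at 96067046 to 96068455, held 65 against 27 reads, a fold of 2.69 (1.69 to 4.38). Peak 6 began 7 bp after it and had 33 against 11 reads and a fold of 3.35 (1.65 to 7.34). Peak 7, at 96071355 to 96073199, had 64 against 27 reads and a fold of 2.64 (1.66 to 4.31), among the 5 smallest of the window. Their input density was 1.22 to 1.74 times the chromosome median of 11 reads per kb, and the density over peak 5 was the highest of all 29.

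Peaks 9 and 12, among the 5 widest of the window, followed, with narrower peaks between them. Peak 9, at 96085460 to 96089512, was 4053 bp wide and held 214 against 60 reads, a fold of 3.98 (2.98 to 5.39). Peak 12, at 96095466 to 96099806, was 4341 bp wide, with 214 against 51 reads and a fold of 4.68 (3.44 to 6.49). Some of the peaks in this region lay close together. With gaps under 500 bp bridged, the 29 peaks made 18 blocks, of which the longest were peaks 12 to 15, a block of 12.2 kb with a fold of 4.19 (3.48 to 5.07), and peaks 16 and 17, a block of 13.4 kb with 4.66 (3.92 to 5.58).

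Peak 17 alone held 518 against 121 reads, a fold of 4.78 (3.91 to 5.87), and 17.2% of the ChIP reads in peaks of the stretch. Its enrichment was spread over its whole width. In steps of 1 kb its ChIP reads ranged from 39 to 79 per full step, and the input from 7 to 19. The lowest fold was at its Hoxb13 edge, 2.82 (1.63 to 5.08), and the highest were in the fifth and the ninth step, at 7.34 (3.98 to 14.8) and 10.4 (4.75 to 26.8), with wide intervals that overlapped each other. Every step had an interval above 1.

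After peak 17 came a gap of 6739 bp that was still enriched, with 156 against 76 reads and a fold of 2.29 (1.73 to 3.05). It held one of the only 2 called bins of the window that touch no peak, from 96123001 to 96124000, where 26 reads of the ChIP stood against 2 of the input, a ratio of 14.5 (3.63 to 126) that rests on those 2 input reads. The other, from 96156001 to 96157000, held 32 against 8 reads, a fold of 4.46 (2.01 to 11.2). Peak 18, at 96129132 to 96132650, stood out as weak in the middle of the domain. It was 3519 bp wide and held 140 against 61 reads, a fold of 2.56 (1.88 to 3.52), with input at 1.58 times the chromosome median.

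The 2 largest folds of the window, at peaks 21 and 26, were on the Hoxb1 side of peak 17. Peak 20, also on that side, at 96134673 to 96137679, held 136 against 32 reads, a fold of 4.74 (3.21 to 7.21), close to that of peak 17. Peak 21, at 96140932 to 96142647, had the largest fold, 7.55 (4.20 to 14.7), from 88 against 13 reads. Its input density was the lowest of the 29 peaks, at 0.689 times the chromosome median, and its ChIP count was at the median of the 29, which was 88. Peak 26, at 96167800 to 96170164, held 146 against 29 reads, a fold of 5.62 (3.75 to 8.68), with input at 1.11 times the median.

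By local height, peak 26 came first. Its densest 500 bp held 68 ChIP reads, against 49 in the densest 500 bp of the much wider peak 17 and a range of 21 to 68 over the 29 peaks (median 32). The bin of 1 kb with the most ChIP reads in the window, from 96169001 to 96170000, also lay in peak 26, with 90 against 22 reads. Peak 23, at 96157532 to 96161338, was the last of the 5 widest at 3807 bp, with 193 against 62 reads and a fold of 3.47 (2.60 to 4.70). Differences among single peaks were mostly within counting error: the intervals of 24 of the 29 held the joint fold of 3.71. Peaks 17, 21 and 26 lay above it and peaks 2 and 18 below it, as single intervals with no adjustment for 29 peaks.

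The bases between peaks of the stretch were enriched as well, and held 28.1% of its ChIP reads. Over 58.3 kb there were 1180 reads in the ChIP and 680 in the input, so that the fold was 1.94 (1.76 to 2.13). Of the 24 gaps, 11 were shorter than 500 bp and 4 shorter than 50 bp, and the longest was 9247 bp. In the 12 gaps of at least 1 kb the fold ranged from 1.26 to 2.71, and 9 of them had an interval above 1. The longest gap, between peaks 27 and 28, had a fold of 1.75 (1.34 to 2.30), and the gap of 6280 bp between peaks 7 and 8 had 1.28 (0.963 to 1.70).

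The fold was lower outside than inside both edges of the stretch, which are set by the peak list. At the Hoxb13 edge the fold was 1.89 (1.55 to 2.31) over the 10 kb inside and 1.19 (0.900 to 1.58) over the 10 kb outside. At the Hoxb1 edge it was 2.28 (1.82 to 2.86) inside and 1.32 (1.02 to 1.70) outside. Outside the Hoxb13 edge the fold was 1.95 (0.764 to 5.37) in the first 1 kb and 1.56 (0.645 to 3.93) in the next. It was 1.46 (0.850 to 2.53) at 2 to 5 kb, and 0.897 (0.592 to 1.35) from there to 10 kb. Outside the Hoxb1 edge it was 0.687 (0.247 to 1.79) in the first 1 kb. It then was 2.01 (0.879 to 4.87) in the next, and from 2 to 5 kb it was 1.46 (0.878 to 2.46). From 5 to 10 kb it was 1.27 (0.898 to 1.80).

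These steps held 8 to 74 ChIP reads each up to 10 kb, so a slope within them could not be told apart from counting error at this depth. Over the 5 kb outside, the 2 edges had folds of 1.57 (1.05 to 2.37) and 1.37 (0.937 to 2.02), a ratio of 1.14 (0.650 to 2.02; two-sided Fisher's exact test, adjusted p = 0.685). At 10 to 20 kb both were near 1, at 1.02 (0.785 to 1.33) and 0.917 (0.694 to 1.21). From the Hoxb1 edge to the end of the window, 59.1 kb, the fold was 0.994 (0.895 to 1.10). The last 2 peaks of the stretch were peak 28, at 96180694 to 96183344, with a fold of 3.09 (2.12 to 4.58), and peak 29, at 96190177 to 96190890. Peak 29 held 23 against 9 reads, a fold of 2.85 (1.27 to 7.0). The gaps before peaks 28 and 29 held 146 and 116 ChIP reads, at folds of 1.75 (1.34 to 2.30) and 1.77 (1.31 to 2.41).

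The HoxB stretch was set against the longest stretch of peaks in each of the other 3 Hox clusters, HoxA on chromosome 6, HoxC on chromosome 15 and HoxD on chromosome 2, by positions of the same list. HoxB was the longest, at 123.8 kb with 25 peaks, while the others spanned 85.3, 106.5 and 56.8 kb with 23, 24 and 16 peaks. Peaks covered 52.9% of it, against 60.5% in HoxA, 47.5% in HoxC and 64.1% in HoxD. Its median peak width was 1997 bp, against 1598, 1515.5 and 1804.5 bp. It had the widest peak of the 4, at 9780 bp, while the widest of the others measured 4577, 6818 and 6769 bp.

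The fold in HoxB peaks, 3.89, was below that of the other stretches. All these peaks were called on the same ChIP reads, and the tests pool reads over peaks. They cover counting error only, so a ratio that passes does not show that the clusters differ beyond the spread among peaks. Folds of single peaks ran from 2.56 to 7.55 in HoxB and from 3.19 to 8.62 in HoxD. In HoxD peaks the joint fold was 4.98 (4.45 to 5.58). The ratio of HoxB to HoxD was 0.782 (0.682 to 0.896; two-sided Fisher's exact test, adjusted p = 0.00186 over 6 tests). With peaks joined over at most 5 kb, which takes only peaks 8 to 17 of HoxB, this ratio was 0.858 and no longer passed (Fisher's exact test, adjusted p = 0.340). Against HoxA, at 4.47 (4.08 to 4.89), the ratio was 0.872 (0.774 to 0.981; Fisher's exact test, adjusted p = 0.0515), and against HoxC, at 4.40 (4.01 to 4.84), it was 0.885 (0.783 to 0.999; adjusted p = 0.0680). Neither passed, though the HoxA ratio did with duplicates kept or a shift of 100 bp, at adjusted p = 0.0419 and 0.0398 by the same exact test. Of the 25 HoxB peaks 9 reached a fold of 4, against 13 of 23, 13 of 24 and 14 of 16. Over the whole list 40.6% of peaks reached it.

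Between peaks the values were closer. This space is set by the same peak list, so these tests too cover counting error only. The HoxB fold of 1.94 stood beside 1.90 (1.67 to 2.17) in HoxA, 2.10 (1.90 to 2.33) in HoxC and 2.41 (2.03 to 2.87) in HoxD. The ratios were 1.02 (0.863 to 1.20), 0.920 (0.800 to 1.06) and 0.802 (0.657 to 0.978), with adjusted p of 0.838, 0.283 and 0.0515 by the same exact test. The HoxD ratio passed with duplicates kept and with a shift of 100 bp, and the HoxA ratio with peaks joined over at most 20 kb, at 1.17 (adjusted p = 0.0453, Fisher's exact test). With joining over at most 5 kb the HoxC and HoxD ratios turned direction, to 1.08 and 1.002. The input density over the 4 stretches was 1.13 (HoxB), 1.25 (HoxA), 1.21 (HoxC) and 1.13 (HoxD) times the median of their chromosomes.

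**Figure D5:**
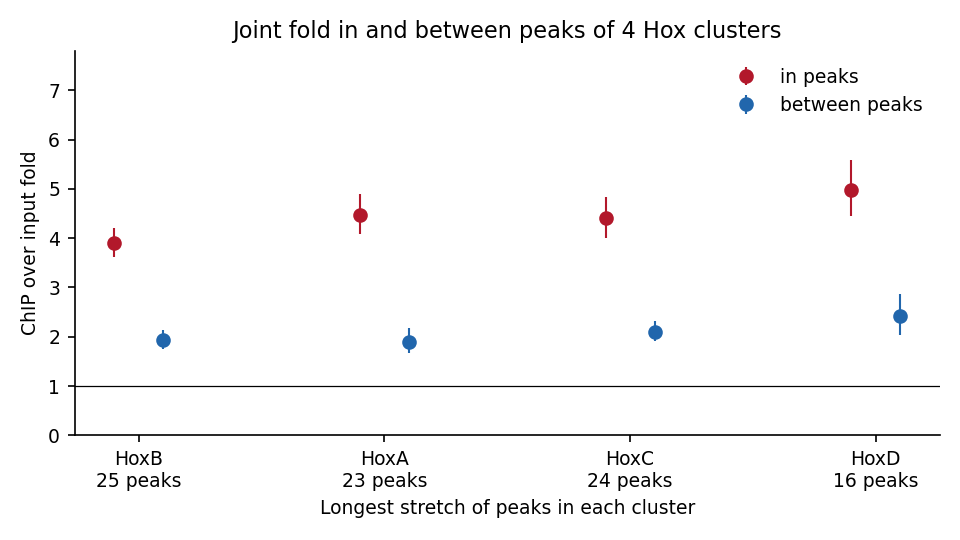
Joint ChIP over input fold in peaks (red) and between peaks (blue) of the longest stretch of peaks in each Hox cluster, with exact 95% intervals for counting error; the line marks a fold of 1. The HoxB value in peaks, 3.89, is the lowest of the 4, and the values between peaks run from 1.90 to 2.41.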

How the data were processed

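PHF19 ChIP and input DNA were sequenced in E14 cells, 1 library each, grouped by the antibody in the labels. The submitters' processing notes name Bowtie and the mm8 build. A version of Bowtie, and the treatment of reads that match several places, is not stated in the sources used here. The authors deposited 1 line of 42 bases per read, 23965625 for the ChIP and 26433784 for the input. They also deposited peaks, which per the file headers are MACS peaks; the authors' score of each peak served here only for ranks and filters inside that list.

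From these, reads that share position and strand were counted once, and 5′ ends were moved inwards by 54 bp. This reaches the middle of the 109 bp fragment read from the input's strand lag (searched from 60 to 400 bp). Libraries were scaled by distinct reads; peaks and genome-wide bins with at least 5 reads were tested with the exact conditional binomial test, and regions with Fisher's exact test. An input count of 0 was replaced by 3 counts.

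Peaks were named by rule: those first and last in the window and in the stretch, those beside the long gap, the 5 widest, the 5 largest and 5 smallest folds, and called bins outside peaks. Peaks 6, 8, 28 and the shares by end were chosen after their values were seen. Members, lists and tests were chosen with earlier results of these data known. The functions were run on simulated counts drawn independently, as the tests assume. That run held no extra spread and no selection of peaks, so it does not check the intervals or calls for these. Alternatives covered duplicates, shift, scaling, peak edges, joining, bin size and thresholds. Tools were scipy 1.17.1, numpy 2.4.6 and pandas 2.3.3 under Python 3.11.15, with figures by matplotlib 3.10.9.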

Additional observations from a re-analysis of the deposited data

How the results depend on the processing

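Across the alternatives, 116 values kept their direction and their side of the threshold, stayed within 1.5 times (counts) or stayed within their counting interval (folds), and so did all 145 folds of single peaks under duplicates kept, other shifts and other scalings. Called bins numbered 51 at 1 kb, 47 at 2 kb and 38 at 500 bp. These were compared as counts, though the window holds a different number of bins at each size, so they do not show a stable share. With a fold of at least 4, 9 of the 29 peaks were called, and 18 peaks had a score at or above the median of the list. With peaks joined over at most 5 kb, which leaves fewer peaks in each stretch, the fold between HoxB peaks was 2.42, the ratio of HoxB to HoxD in peaks was 0.858, and the ratios between peaks reversed to 1.08 (HoxC) and 1.002 (HoxD). With joining over at most 20 kb the ratio of HoxB to HoxA between peaks was 1.17 and passed. The HoxA ratio in peaks passed with duplicates kept (0.872) and a shift of 100 bp (0.866), as did the HoxD ratio between peaks (0.781 and 0.792). The ratio of the lower to the upper part of the stretch reversed to 0.969 with equal numbers of peaks, and neither value passed. Beyond these constructions the cause was not tested. Settings chosen after the data were seen, such as leaving out the widest peak, changed no call. No paired analysis was possible because each group has 1 library. Single bins and edge steps are limited by depth, at a median of 12 input reads per bin of the window.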

Other observations

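Reads removed as repeats of the same position and strand were fewer in the HoxB peaks than in the libraries as a whole. They made up 4.55% of ChIP and 2.82% of input reads there, against 8.38% and 7.33% over the libraries. Of the ChIP reads in the 29 peaks 50.5% were on the plus strand, and of the input reads 50.3%. Single peaks ranged from 42.5% (peak 9, 214 ChIP reads) to 66.7% (peak 10, 39 ChIP reads).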
